A study of Mus musculus with 15 samples.

Results

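The effect of the small molecule IWR-1 was set against the effect of knocking down both tankyrase genes in primary mouse articular chondrocytes, gene by gene. For every gene the difference of differences was taken, (IWR-1 minus DMSO) minus (siTnks/2 minus siCtrl), here called the interaction. It was computed over 12 of the 15 libraries of the series, with 3 libraries in each of 4 groups, and the members are the genes changed by only the drug or only the knockdown, or in opposite directions by the 2 treatments. Of 14164 genes with enough reads to be tested (of 24134 listed), 3845 had an interaction that passed the test (27.1%).

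Tankyrase 1 and tankyrase 2, encoded by *Tnks* and *Tnks2*, attach poly(ADP-ribose) chains to the proteins that their ankyrin repeats hold, and many of these are then ubiquitinated by RNF146 and degraded. AXIN, the scaffold of the β-catenin destruction complex, is the classic substrate, which is why tankyrase inhibitors are used to dampen Wnt signalling. IWR-1 occupies the catalytic domain and leaves the tankyrase proteins in place, whereas small interfering RNAs (siRNAs) deplete the transcripts and with them both the catalytic and the scaffolding part of the proteins. Articular chondrocytes build the collagen and aggrecan matrix of joint cartilage, and under inflammatory stimuli they also make the proteases that break it down.

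All cells came from the femoral condyles and tibial plateaus of 4- to 5-day-old ICR mice and were used at passage 0. DMSO was the vehicle control and IWR-1 was given at 10 µM, both for 108 h. The siCtrl cells received a control siRNA and the siTnks/2 cells a *Tnks* and a *Tnks2* siRNA together, by lipid transfection. How long the transfected cells were kept is not given in the sources used here. The study states 3 biological replicates per group. The drug and the siRNA libraries were deposited as separate count tables, so the kind of treatment, its control and the culture set cannot be told apart from the table, although a constant shift between the tables cancels in the interaction.

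Depth was even, with 26857070 to 36342916 counted reads per library (median 31150495). The cultures carried chondrocyte markers throughout, but the levels of the controls differed between the tables. The summed level of 15 chondrocyte markers was 28141 to 37354 CPM (the reads of a gene scaled to the total of its library) with DMSO, 100971 to 124712 with IWR-1, 100675 to 129595 with siCtrl and 140581 to 206981 with siTnks/2. The marker sums used the plain totals. For the CPM and log2 CPM of single genes below, each total was multiplied by its TMM factor, edgeR's correction for library composition. Erythroid markers were at or near 0 in all 12 libraries, with at most 0.0328 CPM for 5 markers. The 12 leukocyte markers summed to 12.8 to 17.1 CPM with DMSO, 16.6 to 17 with IWR-1, 16.4 to 17.9 with siCtrl and 37.3 to 54.5 with siTnks/2. *Tyrobp*, *C1qa*, *C1qb* and *Cd53* among them never exceeded 3 reads. Only 5 of these markers had enough reads to be tested. Of these, 1 rose after knockdown, and their median knockdown effect was -0.104 on the log2 scale. The 4 adipocyte markers, of which 1 was tested, summed to 36.5 to 47.0 CPM with DMSO, 11.8 to 16.8 with IWR-1, 4.10 to 6.53 with siCtrl and 6.89 to 10.9 with siTnks/2. The part of these differences in the results below was not tested. Among the 6 siRNA libraries, siCtrl 2 and siTnks/2 2 deviated together from their groups in several genes named below. In others, such as *Tagln* and *Acta2*, siCtrl 2 was the highest and siTnks/2 2 the lowest of its group. These are bulk libraries, in which fewer cells of a type and less RNA per cell cannot be told apart.

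The knockdown rests on the following siRNA strands, shown because the knockdown side of every interaction was measured with them. The antisense strand guides silencing, and the capitals mark its seed, bases 2 to 8 from its 5′ end.
siTnks sense: gucugucguugaguaccuu
siTnks antisense: aAGGUACAcaacgacagac
siTnks2 sense: gugucuacuuguaucacau
siTnks2 antisense: aUGUGAUAcaaguagacac
The sense strand of the *Tnks* duplex matched exon 14 of *Tnks* in its coding sequence (GRCm38, GENCODE vM21, chr8:34855966-34855984, minus strand), and that of *Tnks2* matched the 3′ UTR in exon 27 of *Tnks2* (chr19:36892822-36892840, plus strand). No other tested gene held either 19-base sequence in an annotated transcript. The antisense strand of the *Tnks* duplex as listed differs at 1 base from the full complement of its sense strand (U8A, counted from the 5′ end of the antisense strand, complement base first), and the *Tnks2* strand does not differ.

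Both target transcripts fell after knockdown and neither passed the test with IWR-1. *Tnks* was measured at 25.9, 19.8 and 63.2 CPM with DMSO, 22.3, 29.5 and 43.5 with IWR-1, 69.8, 58.7 and 70.7 with siCtrl, and 19.5, 12.8 and 24.0 with siTnks/2. All siTnks/2 libraries lay below all siCtrl libraries, and DMSO replicate 3 stood above the other 2 DMSO libraries. The knockdown effect on the log2 scale was -1.82 ± 0.39 (± SE, adjusted p = 0.00905), the IWR-1 effect -0.19 ± 0.38 (adjusted p = 0.717) and the interaction 1.63 ± 0.54 (adjusted p = 0.0437). That interaction passed the threshold narrowly and did not pass with DESeq2 size factors or the DESeq2 test, nor in 9 of 12 fits that left out a library. *Tnks2* was measured at 119.7, 114 and 149 CPM with DMSO, 107, 103 and 108 with IWR-1, 119.8, 120.3 and 116 with siCtrl, and 57.9, 45.2 and 61.3 with siTnks/2. Here the siTnks/2 libraries stood below all others, with a knockdown effect of -1.11 ± 0.12 (adjusted p = 3.02e-04), an IWR-1 effect of -0.27 ± 0.12 (adjusted p = 0.0836) and an interaction of 0.84 ± 0.17 (adjusted p = 0.00312). With the replicate number as a block the IWR-1 effect on *Tnks2* was -0.26 and passed (adjusted p = 0.0411).

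Throughout, an effect is a log2 fold change with its SE from edgeR's quasi-likelihood F test, fitted over all 12 libraries with 1 coefficient per group, and a gene is called at an adjusted p (Benjamini-Hochberg over the 14164 genes) under 0.05. Across all tested genes, IWR-1 changed 5982 (42.2%), of which 2862 were higher (20.2%) and 3120 lower (22.0%). The knockdown changed 2588 (18.3%), with 1401 higher (9.89%) and 1187 lower (8.38%). The interaction was positive, meaning higher with IWR-1 relative to the knockdown, in 1804 genes (12.7%) and negative in 2041 (14.4%). The median SE of the IWR-1 and knockdown effects was 0.14 for both, and that of the interaction 0.20. With the replicate number as a block, the knockdown changed 4598 genes, each library being set against its own number in the other group. Under the block, 20.1% of tested genes had a positive and 19.9% a negative interaction, 26.3% were higher and 26.9% lower with IWR-1, and 15.9% were higher and 16.6% lower after knockdown. For the lists below, a count under the block is given where it differs by more than 1.5 times. The share of a list called in the interaction is to be read against the 27.1% of all tested genes.

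These calls were combined into classes. IWR-1 alone changed 1154 genes upward (8.15%) and 1298 downward (9.16%), counting only genes whose interaction was also called. The knockdown alone changed 287 upward (2.03%) and 218 downward (1.54%). Opposite effects, both called, were seen in 377 genes, of which 250 were lower with IWR-1 and higher after knockdown (1.77%) and 127 were the reverse (0.897%). A further 275 genes (1.94%) moved the same way by unequal amounts, 255 of them further with IWR-1 and 20 further with the knockdown, and 817 (5.77%) moved the same way with no interaction called. The block by replicate number gave 884 genes for the knockdown alone (6.24%) and 855 opposite genes (6.04%). With it, part of the IWR-1-only classes also had a called knockdown effect. Of the 1154 raised genes, 102 were higher and 127 lower after knockdown, and of the 1298 lowered genes 144 were higher and 84 lower. Over all tested genes the block gave 15.9% higher and 16.6% lower after knockdown. Another 2061 genes were called with IWR-1 alone and 614 with the knockdown alone without a called interaction. In 236 genes the interaction was called although neither effect was.

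**Figure D1:**
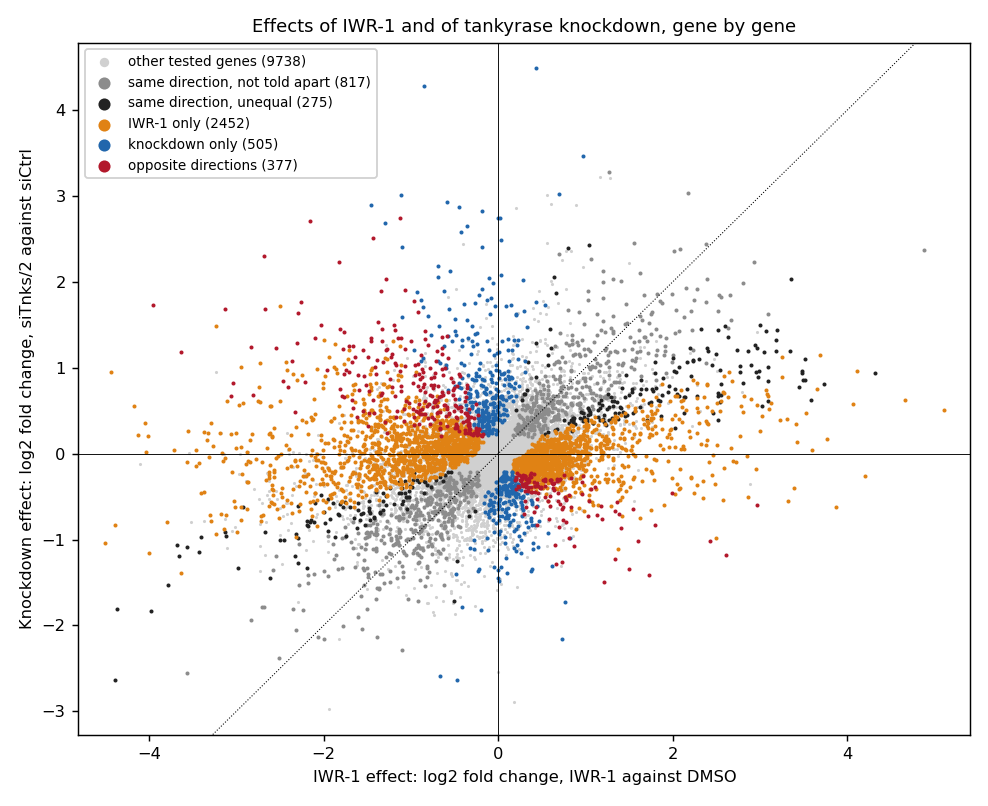
Each point is a tested gene, with the IWR-1 effect (log2, IWR-1 minus DMSO) on the x axis and the knockdown effect (log2, siTnks/2 minus siCtrl) on the y axis, coloured by class. The 1154 and 1298 genes of the IWR-1 only classes spread along the x axis, the 287 and 218 knockdown-only genes along the y axis, and the 377 opposite genes fill the upper left and lower right quadrants.

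The classes differed in where the controls stood. Over all tested genes the median log2 CPM was 4.26, 4.27, 4.27 and 4.26 with DMSO, IWR-1, siCtrl and siTnks/2. For the 1298 genes lower with IWR-1 only it was 4.88, 4.03, 4.0 and 3.97, and for the 1154 genes higher with IWR-1 only 4.32, 4.97, 4.83 and 4.76. In both of these classes the DMSO cultures stood apart and the median after IWR-1 lay close to that of both siRNA groups. For the 250 genes lower with IWR-1 and higher after knockdown the medians were 5.18, 4.16, 3.89 and 4.66, so the siCtrl level lay below the level that IWR-1 reached. The 287 and 218 genes changed by the knockdown only had medians of 4.32, 4.22, 4.09 and 4.70, and of 4.92, 4.99, 5.13 and 4.64, with controls nearer each other. The classes were formed from these same libraries, so the levels describe them and test nothing. The siCtrl level differed from DMSO by more than 1 on the log2 scale in 19.4% of tested genes, 44.7% of those lower with IWR-1 only and 49.6% of the opposite genes lower with IWR-1.

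Matrix proteases were among the genes that the 2 treatments moved in opposite directions. Of 26 tested proteases and TIMPs, 5 did so (*Mmp3*, *Mmp9*, *Mmp10*, *Mmp13* and *Mmp19*), each lower with IWR-1 and higher after knockdown. Over all tested genes 1.77% were in that class. *Mmp13*, the main collagenase of type II collagen, was measured at 13676, 13024 and 12018 CPM with DMSO, 3489, 3404 and 3072 with IWR-1, 502, 422 and 482 with siCtrl, and 827, 1023 and 912 with siTnks/2. IWR-1 libraries lay below every DMSO library and siTnks/2 libraries above every siCtrl library, yet all siRNA libraries stayed below all drug libraries. The effects were -1.96 ± 0.12 with IWR-1 (adjusted p = 5.64e-07) and 0.97 ± 0.12 after knockdown (adjusted p = 5.18e-04), and the interaction -2.93 ± 0.17 (adjusted p = 3.20e-06). *Mmp10*, a stromelysin that cleaves proteoglycans and activates other proteases, stood at 4.76, 4.72 and 4.87 CPM with DMSO, 0.603, 0.539 and 0.916 with IWR-1, 1.35, 1.90 and 1.20 with siCtrl, and 6.15, 9.62 and 6.76 with siTnks/2. Its groups did not overlap within either table, and the siTnks/2 libraries were highest of all, with effects of -2.69 ± 0.25 (adjusted p = 5.29e-06) and 2.30 ± 0.23 (adjusted p = 2.30e-04) and an interaction of -4.99 ± 0.34 (adjusted p = 4.55e-06).

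*Mmp3*, the related stromelysin 1, was abundant only in the drug table, at 9497, 9584 and 10085 CPM with DMSO, 953, 986 and 1389 with IWR-1, 14.6, 35.1 and 17.3 with siCtrl, and 41.2, 130.5 and 43.0 with siTnks/2. It fell by 3.13 ± 0.45 with IWR-1 (adjusted p = 1.62e-04) and rose by 1.68 ± 0.43 after knockdown (adjusted p = 0.0208). *Mmp9*, a gelatinase, stood at 11.99, 16.1 and 11.6 CPM with DMSO, 3.07, 3.30 and 2.40 with IWR-1, 0.315, 0.446 and 0.309 with siCtrl, and 1.83, 5.13 and 1.04 with siTnks/2. In both genes replicate 2 was the highest library of siCtrl and of siTnks/2. The *Mmp9* effects were -2.15 ± 0.40 and 2.71 ± 0.55, the latter from low counts in the siCtrl libraries (interaction -4.86 ± 0.68, adjusted p = 2.93e-04). Without siTnks/2 replicate 2 the interactions of *Mmp3* and *Mmp9* were -4.05 and -4.01. *Mmp3* and *Mmp9* are shown here as members of the protease list picked after their values were seen, as are *Saa3*, *Gdf5*, *Grem1*, *Id3*, *Fos*, *Acan*, *Sox9*, *Ptgs2*, *Wnt7b*, *Asns*, *Trib3*, *Chad*, *Slc1a5*, *Adm*, *Fgfrl1* and *Col2a1* below. Over the list, the interaction was positive in 2 and negative in 14 of 26 genes (61.5% called, against 27.1% of all tested genes). IWR-1 raised 3 and lowered 18, and the knockdown raised 7 and lowered 2 (with the block 6 lower after knockdown). The median interaction was -0.94 (all tested genes: 0.018). The exceptions were *Timp3*, the matrix-bound protease inhibitor, at 1.94 ± 0.14 with IWR-1 and -0.090 ± 0.13 after knockdown (not called), and the membrane protease *Mmp16* at 0.57 ± 0.14 and -0.31 ± 0.14 (not called; blocked by replicate number -0.30, adjusted p = 0.0323). *Timp3* overlaps *Syn3* on the genome.

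The promoters of *Mmp13* and *Mmp10* are shown because both genes ran in opposite directions and each window holds the letters TGACTCA, on which AP-1 (the FOS and JUN factors) binds, marked in capitals on whichever strand it occurs. The windows run from 250 bases before to 50 after the annotated start (RefSeq, GRCm38.p6).
Mmp13, chr9:7272264-7272563, plus strand: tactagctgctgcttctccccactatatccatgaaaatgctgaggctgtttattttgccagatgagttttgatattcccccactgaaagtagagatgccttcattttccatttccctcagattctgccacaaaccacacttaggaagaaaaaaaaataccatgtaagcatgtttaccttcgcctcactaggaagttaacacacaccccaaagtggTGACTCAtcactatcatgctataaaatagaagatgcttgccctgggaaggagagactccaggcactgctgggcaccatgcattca
Mmp10, chr9:7502092-7502391, plus strand: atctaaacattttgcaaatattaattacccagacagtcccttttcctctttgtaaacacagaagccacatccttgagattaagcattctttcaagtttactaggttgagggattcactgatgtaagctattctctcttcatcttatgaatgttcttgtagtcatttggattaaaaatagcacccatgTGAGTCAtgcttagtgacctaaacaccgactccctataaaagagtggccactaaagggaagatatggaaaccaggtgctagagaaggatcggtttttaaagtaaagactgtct
TGACTCA on either strand was in 4 of 20 windows of the protease list (20%), against 3.90% of all 14254 windows, a search added after the values were seen. It was in 0 of 24 windows of the immediate-early list described below. A match is a description of the letters and no evidence that the factor binds.

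Acute-phase and complement genes of the inflamed joint mostly fell with IWR-1, and 4 of 20 moved in opposite directions, at very different levels in the 2 tables. A further 6 were lower with IWR-1 only and 3 higher after knockdown only. All 4 opposite genes were lower with IWR-1. Over all tested genes these classes held 1.77% (opposite, lower with IWR-1), 9.16% and 2.03%. *Saa3*, a serum amyloid A protein, was measured at 20144, 23662 and 12377 CPM with DMSO, 1412, 1935 and 1178 with IWR-1, 3.05, 2.45 and 2.01 with siCtrl, and 6.19, 7.79 and 3.33 with siTnks/2. It was abundant in the drug table and at a few CPM in every siRNA library. Its effects were -3.63 ± 0.32 (adjusted p = 4.95e-06) and 1.18 ± 0.36 (adjusted p = 0.0383). *Hp*, haptoglobin, stood at 757, 897 and 562 CPM with DMSO, 102, 119 and 128 with IWR-1, 1.16, 1.45 and 1.02 with siCtrl, and 4.01, 4.99 and 3.07 with siTnks/2. The interaction was -4.36 ± 0.31 (adjusted p = 4.61e-06), with a knockdown effect of 1.69 ± 0.25 that rests on a rise from a few CPM. *Lcn2*, lipocalin 2, had a mean of 12464 CPM with DMSO against 39.5 with siCtrl, and effects of -1.64 ± 0.30 and 1.12 ± 0.31. Of 20 tested acute-phase and complement genes, 13 had a negative and 0 a positive interaction (65% called, against 27.1% of all tested genes). With IWR-1 16 fell and 0 rose, while 7 rose and 1 fell after knockdown (with the block 3 lower after knockdown). The list median of the siCtrl level minus the DMSO level was -4.42 on the log2 scale, and 12 of the 20 genes differed by more than 3.

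Joint-forming and BMP-pathway genes split in both senses. *Gdf5*, the BMP-family ligand of joint formation, was measured at 74.0, 73.9 and 58.4 CPM with DMSO, 20.2, 21.9 and 18.4 with IWR-1, 15.1, 21.3 and 16.9 with siCtrl, and 39.6, 65.5 and 36.6 with siTnks/2. Replicate 2 was highest in both siRNA groups, and the siTnks/2 libraries were all above siCtrl. Its effects were -1.77 ± 0.21 (adjusted p = 3.54e-05) and 1.41 ± 0.21 (adjusted p = 0.00126). *Grem1*, an antagonist that traps BMPs, stood at 102, 82.0 and 179.8 CPM with DMSO, 32.7, 52.7 and 87.3 with IWR-1, 77.2, 52.7 and 99.5 with siCtrl, and 310.1, 235 and 313 with siTnks/2, with effects of -1.07 ± 0.36 and 1.90 ± 0.37. Its DMSO and IWR-1 libraries overlapped, and its siTnks/2 libraries were above all others. The antagonist *Bmper* (-1.79 ± 0.14 and 0.67 ± 0.14) and the procollagen protease *Bmp1* had the same signs. *Id1* and *Id3*, helix-loop-helix inhibitors that are direct BMP-SMAD targets, ran the other way. *Id1* was at 29.4, 32.6 and 22.0 CPM with DMSO, 67.3, 53.1 and 52.2 with IWR-1, 77.2, 80.9 and 69.8 with siCtrl, and 53.6, 53.7 and 47.8 with siTnks/2, and *Id3* at 90.8, 99.5 and 77.8 CPM with DMSO, 174, 128 and 143 with IWR-1, 179.9, 168 and 172 with siCtrl, and 120.0, 96.3 and 116 with siTnks/2. Both rose with IWR-1 (1.04 ± 0.14 and 0.73 ± 0.13) and fell after knockdown (-0.55 ± 0.14 and -0.65 ± 0.13), with interactions of 1.59 ± 0.20 (adjusted p = 1.89e-04) and 1.38 ± 0.18 (adjusted p = 2.45e-04). In the list of 34 BMP genes the interaction was positive in 9 and negative in 9 (52.9% called, against 27.1% of all tested genes). IWR-1 raised 11 and lowered 12 and the knockdown raised 8 and lowered 8. *Bmp3*, an inhibitory family member, was lower with IWR-1 only (-4.01 ± 0.33, knockdown 0.21 ± 0.24), and the receptor-activated SMAD gene *Smad9* was higher with IWR-1 (1.78 ± 0.14, knockdown -0.30 ± 0.13, blocked by replicate number -0.32 with adjusted p = 0.0406).

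**Figure D2:**
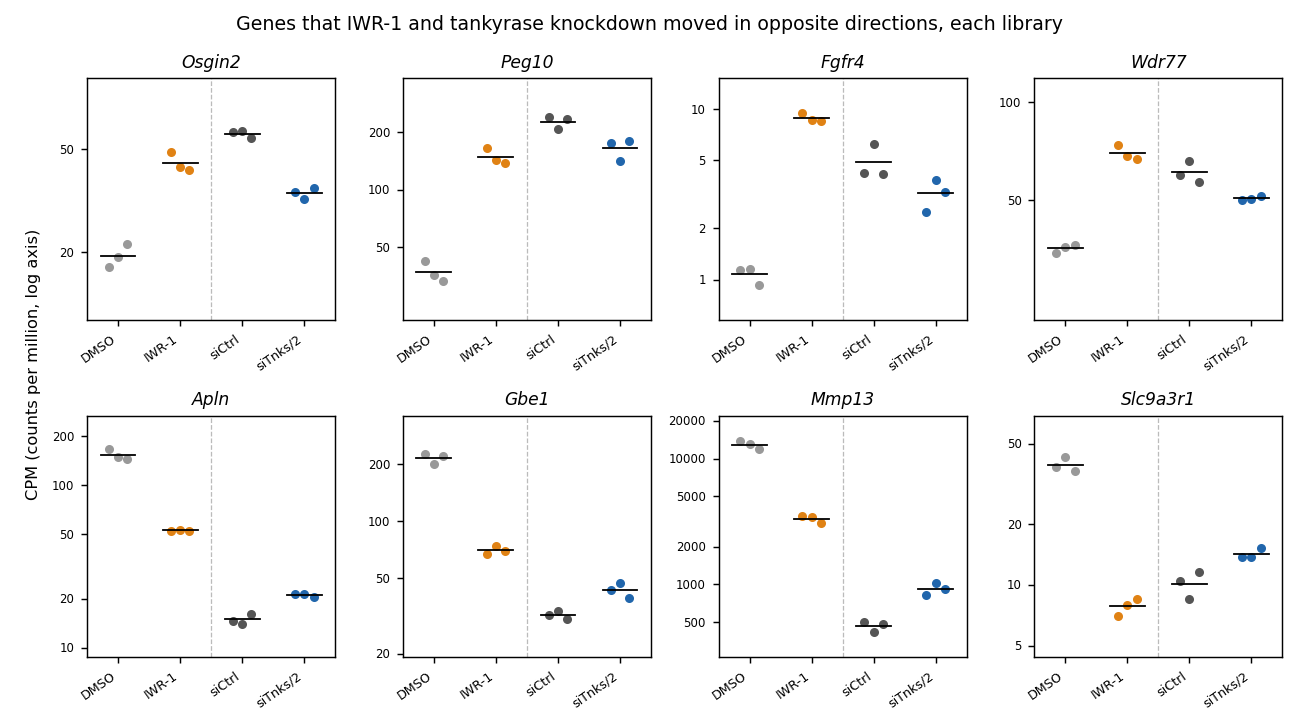
CPM (log axis) in each of the 12 libraries for genes that IWR-1 and the knockdown moved in opposite directions, with a point per library and a bar at the group mean. In *Mmp13* the 3 IWR-1 points lie below the DMSO points while the 3 siTnks/2 points lie above siCtrl, all at lower levels than in the drug table.

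The 8 opposite genes with the smallest interaction p, 4 in each direction, came from several pathways. *Osgin2*, an oxidative stress-induced growth inhibitor family member, was measured at 17.5, 19.1 and 21.4 CPM with DMSO, 48.6, 42.8 and 41.6 with IWR-1, 58.5, 58.6 and 55.0 with siCtrl, and 34.1, 32.0 and 35.4 with siTnks/2. It rose with IWR-1 (1.19 ± 0.091) to a level still below siCtrl, and fell after knockdown (-0.76 ± 0.090), with an interaction of 1.95 ± 0.13 (adjusted p = 4.55e-06). *Peg10*, an imprinted gene derived from a retrotransposon, had effects of 2.0 ± 0.12 and -0.46 ± 0.12, the FGF receptor gene *Fgfr4* 2.97 ± 0.21 and -0.60 ± 0.19, and *Wdr77*, a partner of the arginine methyltransferase PRMT5, 0.97 ± 0.073 and -0.27 ± 0.072. In the other direction stood *Mmp13* and 3 more genes. *Apln*, which encodes the peptide hormone apelin, was at 168, 149.6 and 146 CPM with DMSO, 52.6, 53.1 and 52.6 with IWR-1, 14.7, 14.0 and 16.3 with siCtrl, and 21.4, 21.5 and 20.6 with siTnks/2, so that its IWR-1 level remained above every siRNA library. Its effects were -1.55 ± 0.075 and 0.49 ± 0.078 (adjusted p = 0.00183). *Gbe1*, the glycogen branching enzyme, had effects of -1.62 ± 0.084 and 0.43 ± 0.084, and *Slc9a3r1*, the NHERF1 scaffold of membrane transporters, -2.32 ± 0.13 and 0.49 ± 0.12. Knockdown effects in this group of 8 were smaller than 1 on the log2 scale, and the IWR-1 effects of all but *Wdr77* were larger than 1.

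Opposite effects also touched growth factors and regulators. *Myc*, the proliferation factor, rose with IWR-1 (0.58 ± 0.15) and fell after knockdown (-0.76 ± 0.16), and *Acta2*, smooth muscle actin, had effects of 1.72 ± 0.36 and -1.42 ± 0.35 from mean levels of 20.9 CPM with DMSO and 862 with siCtrl. *Csf1*, a macrophage growth factor, moved likewise (1.02 ± 0.21 and -0.73 ± 0.20), as did the laminin chain *Lamb3* (1.39 ± 0.13 and -0.70 ± 0.13), the Wnt receptor *Fzd8* (0.39 ± 0.12 and -0.45 ± 0.12), the secreted *Pamr1* (1.36 ± 0.14 and -0.57 ± 0.14) and the chondroitin synthase *Chsy3* (0.68 ± 0.10 and -0.29 ± 0.094). Among the siTnks/2 libraries, replicate 2 was the lowest for *Acta2* (360.5, 185 and 423 CPM) and for *Csf1* (324, 174 and 347 CPM). *Tgfb1*, the ligand of the TGF-β pathway, was measured at 79.3, 78.2 and 76.1 CPM with DMSO, 47.1, 50.6 and 52.0 with IWR-1, 35.5, 38.3 and 38.5 with siCtrl, and 55.8, 74.2 and 55.0 with siTnks/2. It fell with IWR-1 (-0.64 ± 0.10) and rose after knockdown (0.72 ± 0.11, adjusted p = 0.00126). The bone-matrix phosphatase gene *Phospho1*, which overlaps *Abi3*, had effects of -1.68 ± 0.20 and 1.07 ± 0.19, the chemokine *Cxcl14* -1.33 ± 0.19 and 1.31 ± 0.19, the calcineurin regulator *Rcan1* -1.49 ± 0.10 and 0.32 ± 0.10, the ecto-nucleotidase *Nt5e* -1.08 ± 0.14 and 0.52 ± 0.14, and the synapse adhesion gene *Slitrk6* -2.21 ± 0.22 and 0.84 ± 0.21.

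Immediate-early genes, which cells switch on within minutes of a stimulus and which include the AP-1 factors, were lowered by IWR-1 with little change after knockdown. Of 23 tested, 21 fell with IWR-1 and 0 rose, whereas 4 fell and 1 rose after knockdown (with the block 7 lower after knockdown). The interaction was negative in 18 (78.3%, against 14.4% of all tested genes) and positive in 0, and the medians were -1.61 with IWR-1, -0.19 after knockdown and -1.52 for the interaction. *Btg2*, an antiproliferative gene of this group, was measured at 143, 123 and 139 CPM with DMSO, 34.0, 34.7 and 32.4 with IWR-1, 31.8, 39.0 and 31.8 with siCtrl, and 29.3, 30.5 and 29.0 with siTnks/2. Only the DMSO libraries stood apart, and the IWR-1 effect was -2.0 ± 0.092 (adjusted p = 9.15e-08) against -0.21 ± 0.091 after knockdown (adjusted p = 0.137). *Jun*, an AP-1 subunit, stood at 204, 163 and 192 CPM with DMSO, 37.9, 41.4 and 52.4 with IWR-1, 51.4, 64.2 and 56.2 with siCtrl, and 54.6, 48.4 and 52.6 with siTnks/2, with effects of -2.08 ± 0.13 (adjusted p = 5.64e-07) and -0.14 ± 0.13 (adjusted p = 0.492). *Fos*, its partner, stood at 19.1, 16.4 and 18.1 CPM with DMSO, 2.27, 2.85 and 3.75 with IWR-1, 5.76, 11.8 and 4.91 with siCtrl, and 5.39, 9.16 and 5.13 with siTnks/2. Replicate 2 was highest in both siRNA groups, and the effects were -2.57 ± 0.33 (adjusted p = 7.35e-05) and -0.19 ± 0.32 (adjusted p = 0.733). The list median was 5.36 log2 CPM with DMSO, 4.30 with IWR-1, 4.25 with siCtrl and 4.16 with siTnks/2.

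The FGF receptor and ERK feedback list moved in a related way. Of 24 genes, 17 fell and 3 rose with IWR-1, and 1 fell and 3 rose after knockdown (with the block 6 lower after knockdown). The interaction was negative in 11 and positive in 3 (median -0.77, 58.3% called against 27.1% of all tested genes). *Spry4*, an ERK-induced inhibitor of receptor signalling, was at -1.51 ± 0.18 with IWR-1 and 0.20 ± 0.17 after knockdown, and *Phlda1* at -1.16 ± 0.15 and 0.32 ± 0.15 (blocked by replicate number 0.31, adjusted p = 0.0151). The receptor *Fgfr3*, a brake on chondrocyte proliferation, was, with *Fgfr4* and *Fgfrl1*, 1 of the 3 genes with a positive interaction, measured at 28.1, 41.7 and 35.4 CPM with DMSO, 475, 497 and 434 with IWR-1, 576, 633 and 494 with siCtrl, and 1056, 1020.0 and 916 with siTnks/2. It rose with both treatments, by 3.74 ± 0.15 with IWR-1 and 0.81 ± 0.14 after knockdown, and the difference of 2.93 ± 0.20 passed the test (adjusted p = 4.55e-06).

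The genes with the smallest interaction p among those changed by IWR-1 only, 4 in each direction, are given next. *Cntnap3*, a cell adhesion gene of the contactin-associated family, was measured at 0.120, 0.201 and 0.155 CPM with DMSO, 3.90, 4.25 and 3.92 with IWR-1, 4.66, 6.14 and 4.63 with siCtrl, and 4.36, 4.13 and 4.31 with siTnks/2. Its effects were 4.20 ± 0.22 and -0.26 ± 0.15, and the interaction 4.46 ± 0.27 (adjusted p = 3.20e-06). *Sh3tc2*, an adaptor known from peripheral myelin, stood at 5.15, 7.65 and 5.12 CPM with DMSO, 63.5, 72.3 and 58.1 with IWR-1, 52.7, 47.7 and 45.1 with siCtrl, and 56.2, 47.4 and 56.7 with siTnks/2. In both genes the DMSO libraries were far below the other 9, which lay near each other. *Wars*, tryptophanyl-tRNA synthetase (overlapping *Wdr25*), rose with IWR-1 (1.57 ± 0.074, knockdown -0.030 ± 0.072), and so did *Wscd2* (3.77 ± 0.21, knockdown 0.17 ± 0.16). *Selenbp1*, selenium-binding protein 1, was measured at 121, 113 and 105 CPM with DMSO, 11.3, 14.9 and 12.5 with IWR-1, 3.46, 3.20 and 4.17 with siCtrl, and 4.01, 2.84 and 3.66 with siTnks/2. It fell by 3.13 ± 0.14 with IWR-1 and was at -0.045 ± 0.16 after knockdown (adjusted p = 0.88). *Insig2*, which retains the sterol sensor in the endoplasmic reticulum, stood at 146, 136 and 137 CPM with DMSO, 54.2, 53.4 and 58.2 with IWR-1, 52.7, 59.0 and 55.8 with siCtrl, and 57.1, 59.7 and 56.8 with siTnks/2. Its DMSO libraries alone stood apart (-1.34 ± 0.069, knockdown 0.052 ± 0.069). The calcium channel *Cacna1h* (-3.56 ± 0.17, knockdown -0.10 ± 0.17) and the membrane scaffold *Mpp2* (-2.63 ± 0.11, knockdown -0.25 ± 0.11) complete the group. *Cntnap3*, *Sh3tc2*, *Cacna1h*, *Mpp2* and *Insig2* had siCtrl levels close to their IWR-1 levels.

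**Figure D3:**
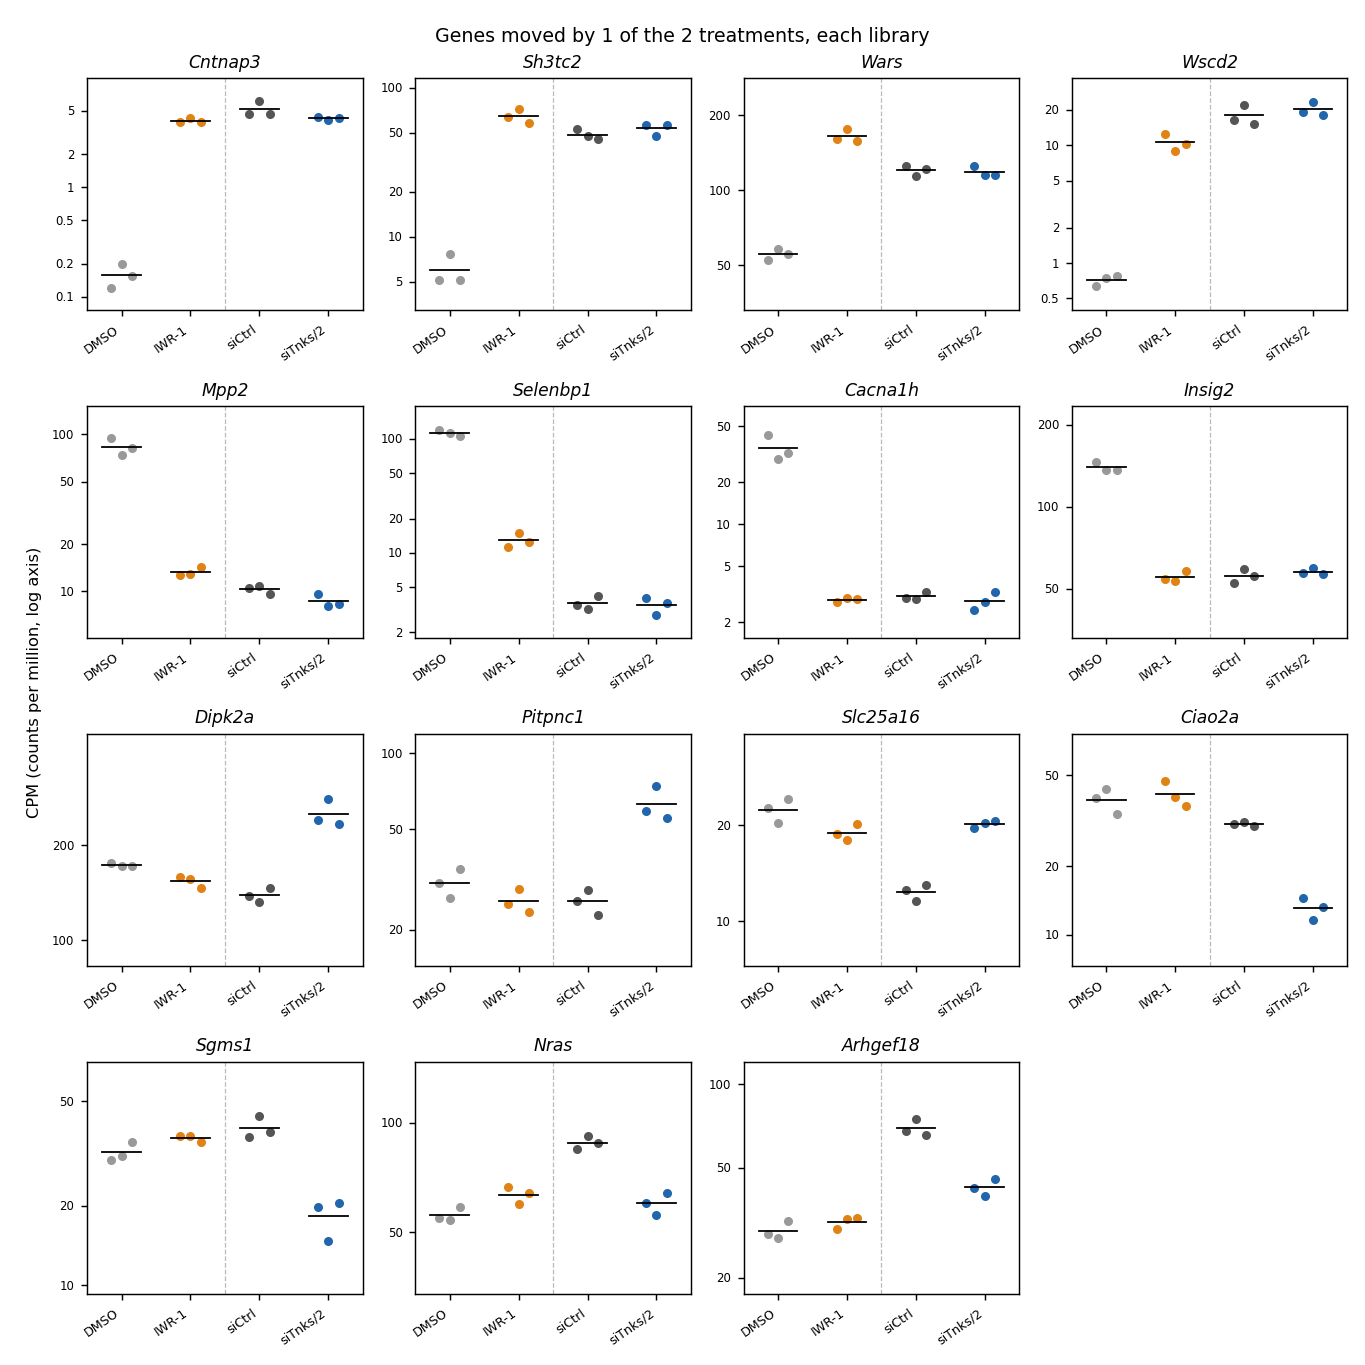
CPM (log axis) in each of the 12 libraries for the genes changed by IWR-1 only and by the knockdown only, with a point per library and a bar at the group mean. In *Selenbp1* the 3 DMSO points stand above the 3 IWR-1 points while siCtrl and siTnks/2 overlap, and in *Ciao2a* only the siTnks/2 points stand apart.

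Hypoxia-response and glycolysis genes fell with IWR-1. Of 35 tested HIF targets and glycolytic genes, 32 fell and 0 rose with IWR-1, and 11 fell and 1 rose after knockdown (with the block 2 higher after knockdown and 21 lower after knockdown). Over all tested genes 22.0% fell with IWR-1 and 8.38% after knockdown. The interaction was negative in 21 (60.0%, against 14.4% of all tested genes) and positive in 0, with medians of -0.89, -0.30 and -0.66 for IWR-1, knockdown and interaction. *Egln3*, an oxygen-sensing prolyl hydroxylase that HIF induces, was measured at 129.5, 137 and 132 CPM with DMSO, 19.8, 23.2 and 23.2 with IWR-1, 7.24, 7.18 and 6.17 with siCtrl, and 6.5, 4.52 and 4.97 with siTnks/2. It fell with IWR-1 (-2.59 ± 0.12, adjusted p = 9.15e-08), with -0.36 ± 0.13 after knockdown (adjusted p = 0.0733, or -0.36 and 0.0266 blocked by replicate number). *Mxi1*, a MYC antagonist, was at -1.71 ± 0.11 and -0.034 ± 0.11, and *Ddit4*, an inhibitor of mTORC1, at -0.98 ± 0.072 and 0.070 ± 0.073. *Adm*, the vasodilator peptide adrenomedullin, stood at 206, 195 and 176 CPM with DMSO, 39.1, 41.2 and 46.5 with IWR-1, 43.7, 65.0 and 47.3 with siCtrl, and 31.5, 28.3 and 27.3 with siTnks/2. It fell with both treatments, by unequal amounts (-2.18 ± 0.14 and -0.84 ± 0.14, interaction -1.34 ± 0.19 with adjusted p = 4.32e-04). The list median stood at 8.87 log2 CPM with DMSO, 7.93 with IWR-1, 7.31 with siCtrl and 7.03 with siTnks/2.

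Inflammatory mediators were lowered by IWR-1 from a DMSO level that siCtrl did not share. Of 19 nitric oxide, prostaglandin and cytokine genes, 13 fell and 1 rose with IWR-1, and 4 fell and 2 rose after knockdown (with the block 4 higher after knockdown). The interaction was negative in 11 and positive in 1 (median -2.04, 63.2% called against 27.1% of all tested genes). *Ptgs2*, the inducible cyclooxygenase, was measured at 209, 159.9 and 335 CPM with DMSO, 22.4, 17.5 and 26.3 with IWR-1, 55.5, 105 and 68.6 with siCtrl, and 31.3, 43.5 and 41.7 with siTnks/2. No groups overlapped within a table, and it fell with both treatments, further with IWR-1 (-3.40 ± 0.31 against -0.97 ± 0.28, interaction adjusted p = 0.00112). *Lif*, a cytokine of the interleukin 6 family, behaved alike (-3.67 ± 0.26 and -1.07 ± 0.27), while its relative *Il11* fell with IWR-1 only (-4.04 ± 0.29, knockdown 0.35 ± 0.27, adjusted p = 0.401). *Il11* stood at 25.7, 16.8 and 32.6 CPM with DMSO, 1.46, 1.27 and 1.63 with IWR-1, 2.77, 3.98 and 2.50 with siCtrl, and 2.87, 4.34 and 4.57 with siTnks/2. Of 18 chemokines, 12 fell and 1 rose with IWR-1, 4 fell and 2 rose after knockdown, and the interaction was negative in 10 and positive in 1 (median -1.47, 61.1% called). *Cx3cl1*, fractalkine, was measured at 263, 218 and 215 CPM with DMSO, 59.7, 55.9 and 60.3 with IWR-1, 29.0, 30.6 and 34.5 with siCtrl, and 30.7, 34.4 and 37.6 with siTnks/2, with effects of -1.98 ± 0.11 and 0.13 ± 0.10. *Ccl9* was the chemokine higher with IWR-1 only (1.75 ± 0.25, interaction 1.26 ± 0.36, adjusted p = 0.0235), a call lost in 4 of 12 fits that left out a library.

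NF-κB feedback genes and antioxidant genes went the same way. Of 21 NF-κB components and feedback genes, 14 fell and 0 rose with IWR-1, 4 fell and 0 rose after knockdown, and the interaction was negative in 9 and positive in 0 (median -0.57, 42.9% called against 27.1% of all tested genes) (with the block 1 positive interaction, 1 higher with IWR-1 and 3 higher after knockdown). *Sod2*, the mitochondrial superoxide dismutase that NF-κB induces, was measured at 598, 687 and 527 CPM with DMSO, 286, 312 and 293 with IWR-1, 64.9, 63.5 and 67.9 with siCtrl, and 72.6, 72.8 and 67.2 with siTnks/2. Its IWR-1 effect was -1.02 ± 0.094 and its knockdown effect 0.12 ± 0.095 (adjusted p = 0.44). *Tnip3*, an inhibitor of the pathway, fell with IWR-1 (-4.17 ± 0.30), with siTnks/2 and siCtrl levels near 0. Of 22 NRF2 antioxidant genes, 17 fell and 2 rose with IWR-1, 1 fell and 3 rose after knockdown, and the interaction was negative in 14 and positive in 0 (median -0.66, 63.6% called) (with the block 1 positive interaction, 6 higher after knockdown and 4 lower after knockdown). *Hmox1*, heme oxygenase 1, stood at 1005, 898 and 924 CPM with DMSO, 456, 524 and 468 with IWR-1, 308, 315 and 320.4 with siCtrl, and 388, 324 and 349 with siTnks/2. Its effects were -0.96 ± 0.091 and 0.17 ± 0.090, and those of *Srxn1*, sulfiredoxin, were -1.27 ± 0.074 and 0.24 ± 0.074, opposite in sign. Of 13 metallothioneins and zinc transporters, 7 fell and 2 rose with IWR-1, 0 fell and 1 rose after knockdown, and 6 had a negative and 0 a positive interaction (46.2% called) (with the block 3 higher after knockdown and 1 lower after knockdown). The metal-binding *Mt2* (-1.18 ± 0.19, knockdown 0.16 ± 0.19) and the zinc importer *Slc39a8* (-2.50 ± 0.39, knockdown 0.61 ± 0.41, blocked by replicate number 0.54 with adjusted p = 0.00175) had the smallest interaction p among them.

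In contrast to these lists, most genes of the ATF4 program rose with IWR-1. ATF4 is the factor that cells use to raise amino acid synthesis, import and tRNA charging. Of 27 tested genes, 22 rose and 3 fell with IWR-1, 6 rose and 1 fell after knockdown, and the interaction was positive in 20 and negative in 3 (with the block 12 higher after knockdown and 3 lower after knockdown). By class, 14 genes were higher with IWR-1 only and 5 moved the same way with both treatments by unequal amounts. Over all tested genes these classes held 8.15% and 1.94%. The positive interactions are 74.1% of the list, against 12.7% of all tested genes, with medians of 0.91, 0.18 and 0.87 for IWR-1, knockdown and interaction. *Asns*, asparagine synthetase, was measured at 166, 206 and 149 CPM with DMSO, 375, 349 and 313 with IWR-1, 227, 215 and 212 with siCtrl, and 234, 224 and 229 with siTnks/2. Its IWR-1 libraries lay above all others, with effects of 0.99 ± 0.11 (adjusted p = 2.45e-05) and 0.071 ± 0.11 (adjusted p = 0.705). *Slc7a5*, the large neutral amino acid transporter, stood at 118, 149.6 and 120.5 CPM with DMSO, 357, 417 and 370.5 with IWR-1, 306, 286 and 292 with siCtrl, and 364, 346 and 330.5 with siTnks/2. Its effects were 1.56 ± 0.10 and 0.23 ± 0.10, the latter called only when blocked by replicate number (0.23, adjusted p = 0.022). *Slc1a5*, a glutamine transporter, rose with both treatments, further with IWR-1 (2.13 ± 0.15 against 0.47 ± 0.15). *Trib3*, a pseudokinase that ATF4 induces, stood at 91.8, 119 and 100.4 CPM with DMSO, 274, 264 and 234 with IWR-1, 139, 143 and 131 with siCtrl, and 212, 241 and 177 with siTnks/2, with effects of 1.31 ± 0.12 and 0.61 ± 0.12 and an interaction of 0.70 ± 0.17 (adjusted p = 0.0108). The exceptions were *Gdf15*, a stress cytokine with opposite effects (-0.76 ± 0.094 and 0.42 ± 0.10), *Vldlr*, a lipoprotein receptor (-0.52 ± 0.086, knockdown 0.16 ± 0.086), and *Slc7a11*, the cystine transporter, all with negative interactions.

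The promoters of *Asns* and *Trib3* are shown because the list moved together and both windows hold the letters TGATGNAA (N being any base), the CRE-like element that ATF4 binds, in capitals on whichever strand it occurs (RefSeq, GRCm38.p6, 250 bases before to 50 after the start, each read along its gene).
Asns, chr6:7693160-7693459, minus strand: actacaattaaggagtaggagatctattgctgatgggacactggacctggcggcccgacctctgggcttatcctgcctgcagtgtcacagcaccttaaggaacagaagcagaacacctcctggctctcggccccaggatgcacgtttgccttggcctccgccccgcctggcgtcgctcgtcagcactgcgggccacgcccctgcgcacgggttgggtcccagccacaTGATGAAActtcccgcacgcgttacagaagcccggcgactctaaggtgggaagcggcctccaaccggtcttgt
Trib3, chr2:152344011-152344310, minus strand: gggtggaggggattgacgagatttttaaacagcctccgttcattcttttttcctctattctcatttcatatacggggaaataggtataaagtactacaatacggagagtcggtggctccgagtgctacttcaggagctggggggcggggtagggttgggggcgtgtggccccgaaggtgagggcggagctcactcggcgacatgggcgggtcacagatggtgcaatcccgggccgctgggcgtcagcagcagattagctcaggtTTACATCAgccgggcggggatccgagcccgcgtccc
The letters were found on either strand in 8 of 25 windows of the ATF4 list (32.0%) and in 2.30% of all 14254 windows. Of the other motifs searched, the hypoxia element ACGTG was in 54.2% of HIF-list windows (24.9% of all), the antioxidant element TGACNNNGC in 34.8% of NRF2-list windows (14.1%), the κB element GGGANNNCC in 42.1% of NF-κB-list windows (23.8%), and GAAANNGAA in 56.2% of windows of interferon-stimulated genes (6.90%). TCF/LEF sites, CTTTGAT, were in 6.67% of the Wnt feedback windows (2.56%), TEAD sites, GGAATG, in 47.1% of the YAP list (12.5%), sterol elements, TCACNCCAC, in 5.26% of the cholesterol list (1.14%), and TGCGTG in 16.7% of the aryl hydrocarbon receptor list (11.7%). The motifs were picked for these lists, some windows belong to alternative starts of a gene, and whether they bear on the response was not tested.

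The genes changed by the knockdown only were fewer, with a median knockdown effect of 0.72 in the 287 raised genes and -0.53 in the 218 lowered genes. The median IWR-1 effect was 0.64 in the genes raised and -0.97 in those lowered by IWR-1 only. *Ciao2a*, which takes part in iron-sulfur protein assembly, was measured at 39.7, 43.5 and 34.0 CPM with DMSO, 47.4, 40.3 and 36.8 with IWR-1, 30.5, 31.1 and 30.0 with siCtrl, and 14.5, 11.6 and 13.3 with siTnks/2. Only the siTnks/2 libraries stood apart, with a knockdown effect of -1.21 ± 0.12 (adjusted p = 2.30e-04) and an IWR-1 effect of 0.088 ± 0.12 (adjusted p = 0.574). *Sgms1*, sphingomyelin synthase 1 (overlapping *2700046G09Rik*), stood at 30.0, 30.9 and 35 CPM with DMSO, 36.8, 36.7 and 34.95 with IWR-1, 36.4, 43.9 and 38.3 with siCtrl, and 19.8, 14.8 and 20.5 with siTnks/2. It fell by 1.10 ± 0.12 after knockdown (adjusted p = 3.28e-04). *Nras*, a small GTPase of the RAS family (-0.55 ± 0.075, IWR-1 0.19 ± 0.075), and *Arhgef18*, an exchange factor of small GTPases (-0.71 ± 0.085, IWR-1 0.11 ± 0.086), were the other lowered genes of the rule. Among the raised genes, *Dipk2a* was measured at 176, 171 and 172 CPM with DMSO, 159, 157 and 146 with IWR-1, 138, 132 and 147 with siCtrl, and 241, 281 and 233 with siTnks/2, with a knockdown effect of 0.85 ± 0.082 (adjusted p = 2.30e-04). *Pitpnc1*, a phosphatidylinositol transfer protein, rose by 1.27 ± 0.14 (IWR-1 -0.24 ± 0.14). The mitochondrial carrier *Slc25a16* rose as well (0.70 ± 0.092, IWR-1 -0.24 ± 0.090, or -0.24 with adjusted p = 0.0273 when blocked by replicate number).

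An siRNA can also lower transcripts whose 3′ UTR pairs with its seed, so the complements of the 2 seeds printed above, TGTACCT for the *Tnks* guide and TATCACA for the *Tnks2* guide, were searched in the longest annotated 3′ UTR of 13426 tested genes. This search was added after the values were seen and is a description. A site for either guide was in 19.98% of all genes, in 23.4% of all genes lower after knockdown (274 of 1171) and in 19.0% of all genes higher after it. By class, it was in 28.2% of those lowered by the knockdown only (61 of 216), in 19.7% of those raised by it only, in 20.4% and 17.6% of those lowered and raised by IWR-1 only, in 27.8% of the opposite genes lower after knockdown (35 of 126) and in 15.9% of the opposite genes higher after knockdown. The *Tnks* guide gave 20.8% in the genes lowered by the knockdown only against 13.2% in all genes, and the *Tnks2* guide 10.6% against 8.96%. With the *Tnks* seed taken as the full complement of the sense strand (AGTACCT) the shares were 14.8% and 9.17%. Median UTR length was 1375 bases in the genes lowered by the knockdown only and 1370 in all genes. The median knockdown effect was -0.020 in genes with a site and -0.011 in those without. *Ciao2a* and *Nras* each held 1 site for the *Tnks* guide, as did the raised *Pitpnc1*, and *Sgms1* and *Arhgef18* held none. Whether the seeds lowered these transcripts was not tested.

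Many contractile genes fell with either treatment, more of them after knockdown, and part of the cell cycle genes fell after knockdown. Few of their interactions passed the test without the block. Of 23 contractile genes of the SRF program, 18 fell and 0 rose after knockdown and 10 fell and 1 rose with IWR-1, with medians of -0.76 and -0.45. Over all tested genes 8.38% fell after knockdown and 22.0% with IWR-1. The interaction was called in 3 of the contractile genes (13%, against 27.1% of all tested genes), positive in 2 and negative in 1. Another 6 moved the same way and had no interaction called, as did 5.77% of all tested genes. With the block 5 interactions were positive, where 20.1% of all tested genes had a positive one. *Tagln*, a smooth muscle actin-binding gene that overlaps *Pcsk7*, was measured at 37.3, 30.8 and 20.2 CPM with DMSO, 37.3, 22.0 and 30.0 with IWR-1, 306, 417 and 262 with siCtrl, and 138, 57.0 and 157 with siTnks/2. It fell by 1.49 ± 0.34 after knockdown (adjusted p = 0.0126) from siCtrl levels far above DMSO, and was at 0.015 ± 0.35 with IWR-1. Its interaction of 1.5 ± 0.49 (adjusted p = 0.0386) was lost in 7 of 12 fits that left out a library. *Tes*, a focal adhesion gene, was lower with IWR-1 only (-1.40 ± 0.11, knockdown -0.25 ± 0.11). The list median was 6.63 log2 CPM with DMSO and 8.08 with siCtrl. Of 41 cell cycle and mitosis genes, 12 fell and 0 rose after knockdown and 5 fell and 2 rose with IWR-1, with medians of -0.87 and -0.16. The interaction was positive in 6 and negative in 0, or 14.6% against 12.7% positive in all tested genes (with the block 15 positive interactions and 41 lower after knockdown). With the block every tested gene of this list was lower after knockdown, where 16.6% of all genes were. A positive interaction was called in 20.1% of all genes with the block. *Mcm2* and *Mcm6*, subunits of the replicative helicase, rose with IWR-1 (1.12 ± 0.21 and 0.51 ± 0.14) and had knockdown effects of -0.41 ± 0.21 and -0.37 ± 0.14, which passed when blocked by replicate number (-0.47 with adjusted p = 0.0347, and -0.38 with adjusted p = 0.0466).

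Cartilage genes rose with both treatments, many of them further with IWR-1. Of 27 cartilage matrix genes and SOX factors, 21 rose and 0 fell with IWR-1, 15 rose and 0 fell after knockdown, and the interaction was positive in 14 (51.9%, against 12.7% of all tested genes) and negative in 0, with medians of 1.62, 0.67 and 0.96 (with the block 2 negative interactions and 1 lower with IWR-1). *Acan*, aggrecan, was measured at 563, 879.7 and 824 CPM with DMSO, 5421, 6744 and 5335 with IWR-1, 8010.3, 9846 and 8087 with siCtrl, and 15099, 20530.5 and 14409 with siTnks/2. Replicate 2 was highest in both siRNA groups, and the IWR-1 libraries lay below every siRNA library. Its effects were 2.95 ± 0.21 (adjusted p = 1.04e-06) and 0.95 ± 0.20 (adjusted p = 0.00742), and the interaction 2.0 ± 0.28 (adjusted p = 3.84e-04). *Col27a1*, a fibrillar collagen, had effects of 3.09 ± 0.20 and 1.01 ± 0.19, and *Hapln1*, the link protein of aggrecan, 1.62 ± 0.12 and 0.23 ± 0.11 (knockdown not called). *Sox9*, the master factor of chondrogenesis, stood at 100.0, 120.1 and 116 CPM with DMSO, 219, 244 and 212 with IWR-1, 176, 206 and 179.6 with siCtrl, and 181, 223 and 181 with siTnks/2. Its effect was 1.0 ± 0.11 with IWR-1 (adjusted p = 2.08e-05) and 0.058 ± 0.11 after knockdown (adjusted p = 0.76). *Col2a1*, type II collagen, was at 21301, 28589 and 20595 CPM with DMSO, 71919, 84475 and 65610.1 with IWR-1, 65376, 82010.4 and 58571 with siCtrl, and 94585, 143799 and 80218 with siTnks/2. Its knockdown effect was 0.63 ± 0.24 (adjusted p = 0.0944; blocked by replicate number 0.60, adjusted p = 0.00898), and its interaction of 1.03 ± 0.34 (adjusted p = 0.0445) was lost in 10 of 12 fits that left out a library. *Chad*, chondroadherin (overlapping *Acsf2*), was an exception, with 2.08 ± 0.34 and 2.38 ± 0.33 and no called interaction (-0.30 ± 0.45, adjusted p = 0.669, or 0.15 without siTnks/2 replicate 2). The median log2 CPM of the list was 7.80 with DMSO, 9.30 with IWR-1, 8.65 with siCtrl and 9.62 with siTnks/2, so the larger IWR-1 effect started from a lower control.

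Genes of hypertrophy and mineralization were mixed. Of 19, 9 rose and 5 fell with IWR-1, 10 rose and 0 fell after knockdown, and the interaction was positive in 6 and negative in 6 (63.2% called, against 27.1% of all tested genes). *Sp7*, the osteoblast factor osterix (2.47 ± 0.16 and 0.48 ± 0.14), and the channel *Panx3* (2.52 ± 0.18 and 0.67 ± 0.17) rose with both. Of 25 fibroblast-type matrix genes, 9 fell and 3 rose with IWR-1 and 2 fell and 4 rose after knockdown, with 1 positive and 6 negative interactions (28% called, near the share of all tested genes) (with the block 2 positive interactions, 11 negative interactions, 14 lower with IWR-1 and 10 lower after knockdown). The small proteoglycans *Lum* (-1.51 ± 0.13, knockdown 0.055 ± 0.13) and *Dcn* (-1.29 ± 0.21, knockdown 0.55 ± 0.20, blocked by replicate number 0.52 with adjusted p = 0.00327) were lower with IWR-1 only, and *Thbs1*, thrombospondin 1, after knockdown only (-0.97 ± 0.20, IWR-1 0.083 ± 0.20), a call whose interaction was lost without IWR-1 replicate 1. Of 30 genes of glycosaminoglycan synthesis, 10 rose and 9 fell with IWR-1, 7 rose and 3 fell after knockdown, and 5 interactions were positive and 8 negative (43.3% called) (with the block 8 positive interactions and 11 higher after knockdown). *Papss2*, which makes the sulfate donor, rose with both (2.07 ± 0.15 and 0.68 ± 0.15), while the sulfotransferases *Chst15* (-0.97 ± 0.13 and 0.43 ± 0.12) and *Ust* (-0.75 ± 0.13 and 0.68 ± 0.14) moved in opposite directions.

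The Wnt pathway, the usual readout of tankyrase inhibition, held genes that moved in both directions with each treatment. Of 17 Wnt feedback targets, 6 fell and 3 rose with IWR-1 and 2 fell and 3 rose after knockdown, with 2 positive and 5 negative interactions (41.2% called, against 27.1% of all tested genes) (with the block 9 negative interactions and 4 lower after knockdown). Over all tested genes 14.4% had a negative interaction, or 19.9% with the block. The list medians were -0.543 with IWR-1, 0.295 after knockdown and -0.573 for the interaction. *Axin2*, the feedback target most used as a Wnt reporter, was measured at 3.29, 2.56 and 3.07 CPM with DMSO, 0.603, 0.412 and 0.801 with IWR-1, 3.46, 2.49 and 3.43 with siCtrl, and 3.08, 1.69 and 3.17 with siTnks/2. The IWR-1 libraries were lowest, while siCtrl and siTnks/2 overlapped. Its effects were -2.17 ± 0.29 (adjusted p = 7.47e-05) and -0.24 ± 0.26 (adjusted p = 0.566), with an interaction of -1.94 ± 0.39 (adjusted p = 0.0027). *Bambi*, a pseudoreceptor of BMP and TGF-β that Wnt induces, rose with both (2.03 ± 0.19 and 0.75 ± 0.17), and *Kremen1*, a co-receptor of DKK antagonists, had opposite effects (-0.94 ± 0.14 and 0.50 ± 0.14). Of 24 Wnt ligands, frizzleds and secreted antagonists, 8 rose and 10 fell with IWR-1, 9 rose and 4 fell after knockdown, and 3 interactions were positive and 5 negative (33.3% called) (with the block 8 negative interactions and 7 lower after knockdown). The receptor *Fzd9* rose with IWR-1 (3.09 ± 0.26, knockdown 0.67 ± 0.24, blocked by replicate number 0.67 with adjusted p = 0.00755), the receptor *Fzd1* fell (-1.32 ± 0.085, knockdown -0.23 ± 0.085), and the ligands *Wnt9a* (-3.17 ± 0.33, knockdown -0.70 ± 0.30; blocked -0.70, adjusted p = 0.0216) and *Wnt7b* (-0.92 ± 0.27 and 0.79 ± 0.23) fell with IWR-1.

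Among 27 genes of the tankyrases, the destruction complex and tankyrase substrates, 3 rose and 9 fell with IWR-1 and 3 rose and 4 fell after knockdown, with 2 positive interactions (*Tnks* and *Tnks2* themselves) and 6 negative ones (29.6% called, near the background) (with the block 5 positive interactions and 5 higher with IWR-1). *Sh3bp2*, an adaptor protein and tankyrase substrate, rose after knockdown only (0.76 ± 0.16, IWR-1 -0.43 ± 0.16). Of 21 YAP/TEAD targets, 2 rose and 8 fell with IWR-1 and 2 rose and 7 fell after knockdown, with 2 positive and 2 negative interactions (19% called, against 27.1% of all tested genes) (with the block 14 lower with IWR-1 and 14 lower after knockdown). *Ajuba*, a scaffold of the Hippo pathway, fell after knockdown only (-0.71 ± 0.13, IWR-1 0.12 ± 0.13), *Fjx1* rose with IWR-1 only (1.67 ± 0.21) and *Gadd45a* (overlapping *E230016M11Rik*) rose after knockdown only (0.91 ± 0.14, IWR-1 -0.26 ± 0.14, or -0.25 with adjusted p = 0.0152 when blocked by replicate number). Of 25 genes of the TGF-β and activin axis, 15 fell and 2 rose with IWR-1 and 2 fell and 3 rose after knockdown, with 2 positive and 11 negative interactions (52% called) (with the block 5 higher after knockdown and 7 lower after knockdown). *Tgfbi* (1.70 ± 0.24, knockdown -0.026 ± 0.23) and the latency protein *Ltbp4* (1.0 ± 0.15, knockdown -0.19 ± 0.15) were higher with IWR-1 only, and the activin subunit *Inhbb* (-1.46 ± 0.18, knockdown -0.016 ± 0.15) lower. Of 12 Notch pathway genes, 1 rose and 5 fell with IWR-1 and 2 rose and 2 fell after knockdown, with 0 positive and 2 negative interactions (16.7% called, below the share of all tested genes) (with the block 4 negative interactions and 6 lower after knockdown), among them the receptor *Notch3*, lower with both (-2.92 ± 0.21 and -0.62 ± 0.20). Of 17 IGF genes, 5 rose and 7 fell with IWR-1 and 3 rose and 0 fell after knockdown, with 1 positive and 5 negative interactions (35.3% called) (with the block 3 positive interactions, 8 negative interactions, 6 higher after knockdown and 2 lower after knockdown). The binding protein *Igfbp3* was lower with IWR-1 only (-2.40 ± 0.16, knockdown 0.053 ± 0.16), as was *Stc1* (-2.25 ± 0.17, knockdown 0.39 ± 0.19, blocked by replicate number 0.39 with adjusted p = 0.0468).

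**Figure D4:**
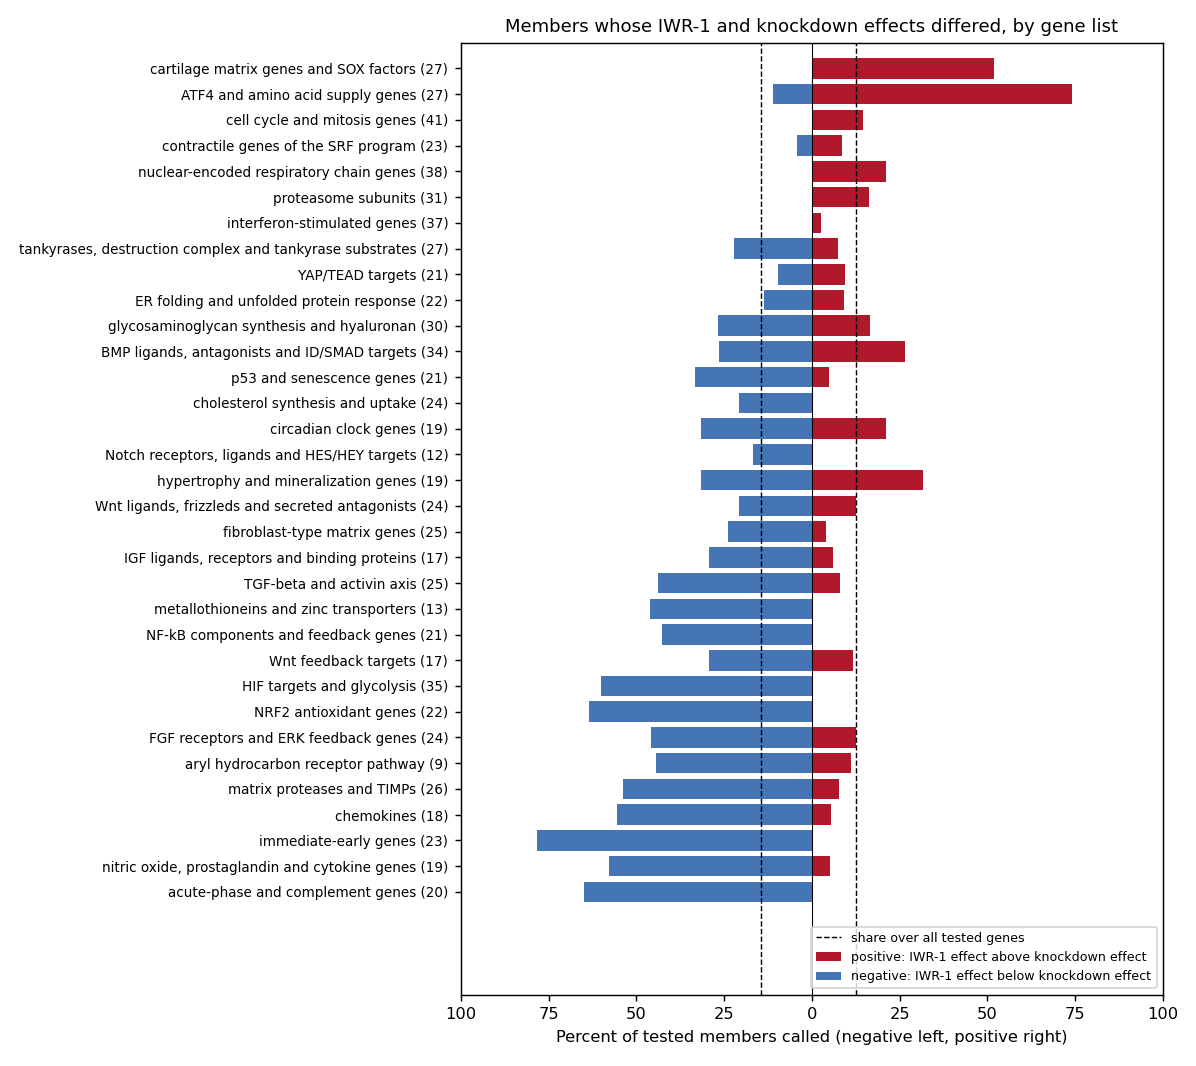
For each gene list, the percent of tested members with a positive and a negative called interaction is drawn as bars, with dashed lines at 12.7% and 14.4%, the shares of all 14164 tested genes. The ATF4 list leads the positive side with 20 of 27 genes, and the immediate-early list the negative side with 18 of 23.

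In the following lists the interaction was called in a share near or below that of all tested genes (27.1%) without the block. Interferon-stimulated genes had the smallest share, with 1 positive and 0 negative interactions in 37 genes (2.70% called), 2 up and 4 down with IWR-1, and 0 up and 2 down after knockdown (with the block 6 positive interactions, 3 negative interactions, 4 higher with IWR-1, 14 lower with IWR-1, 1 higher after knockdown and 9 lower after knockdown). The single called gene, *Ifi44*, had effects of 2.97 ± 0.45 and 0.57 ± 0.39 (blocked by replicate number 0.66, adjusted p = 0.015). Of 31 proteasome subunits 6 rose and 1 fell with IWR-1 and 0 rose and 1 fell after knockdown (5 positive and 0 negative interactions) (with the block 12 positive interactions, 11 higher with IWR-1 and 3 lower after knockdown), with *Psmc5* at 0.49 ± 0.079 and -0.12 ± 0.078. Of 38 nuclear-encoded respiratory chain genes 5 rose and 0 fell with IWR-1 and 0 rose and 3 fell after knockdown (8 positive and 0 negative interactions, or 21.1% positive against 12.7% of all tested genes) (with the block 18 positive interactions, 14 higher with IWR-1, 1 lower with IWR-1 and 10 lower after knockdown), with the complex II subunit *Sdhb* at 0.60 ± 0.12 and -0.12 ± 0.12. Of 22 genes of protein folding in the endoplasmic reticulum 7 rose and 4 fell with IWR-1 and 2 rose and 0 fell after knockdown (2 positive and 3 negative interactions) (with the block 7 higher after knockdown), with the chaperone *Calr* at -0.48 ± 0.10 and -0.034 ± 0.095 and *Dnajc3* at -0.12 ± 0.083 and 0.42 ± 0.083. Of 24 cholesterol genes 17 fell and 0 rose with IWR-1, where 22.0% of all tested genes fell, and 5 fell and 0 rose after knockdown, with 0 positive and 5 negative interactions (20.8% called) (with the block 1 positive interaction, 10 negative interactions and 8 lower after knockdown), as in the squalene epoxidase *Sqle* (-0.72 ± 0.089, knockdown -0.064 ± 0.088).

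Of 21 p53 and senescence genes, 14 fell and 2 rose with IWR-1 and 6 fell and 2 rose after knockdown, with 1 positive and 7 negative interactions (38.1% called, against 27.1% of all tested genes) (with the block 2 positive interactions and 11 lower after knockdown). *Cdkn1a*, the cell cycle inhibitor p21, was measured at 705, 533 and 516 CPM with DMSO, 266, 256 and 243 with IWR-1, 392, 421 and 362 with siCtrl, and 499, 639 and 438 with siTnks/2. It fell with IWR-1 (-1.20 ± 0.15) and was at 0.42 ± 0.15 after knockdown (adjusted p = 0.0657; blocked by replicate number 0.41, adjusted p = 0.00729). *Trp53* itself had the reverse signs (0.50 ± 0.11 and -0.28 ± 0.11, the latter called only when blocked, adjusted p = 0.0179). Of 19 clock genes, 3 rose and 7 fell with IWR-1 and 1 rose and 1 fell after knockdown, with 4 positive and 6 negative interactions (52.6% called) (with the block 3 higher after knockdown and 2 lower after knockdown). *Arntl*, the core activator also called BMAL1, had opposite effects (-0.91 ± 0.12 and 0.49 ± 0.12), and *Per3*, a repressor, rose with IWR-1 only (1.19 ± 0.12, knockdown -0.032 ± 0.12). Of 9 genes of the aryl hydrocarbon receptor pathway, 3 rose and 4 fell with IWR-1 and 3 rose and 0 fell after knockdown, with 1 positive and 4 negative interactions (55.6% called) (with the block 1 lower after knockdown). *Tiparp*, a receptor target with opposite effects (-0.47 ± 0.062 and 0.30 ± 0.063; overlapping *4931440P22Rik*), and *Cyp1b1* (-1.63 ± 0.15, knockdown -0.35 ± 0.15) were among the negative ones.

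**Figure D5:**
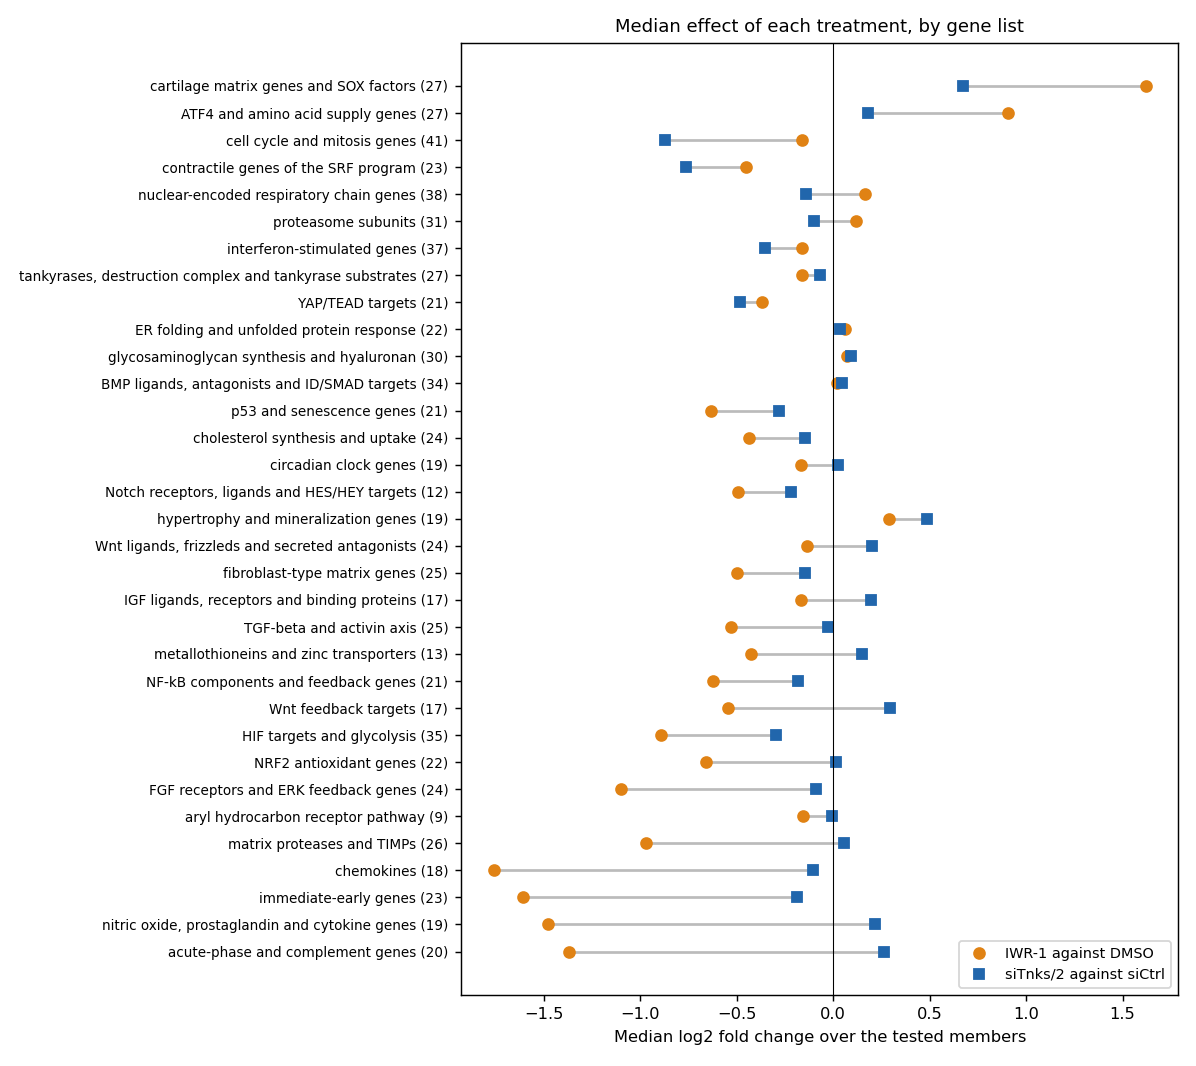
Median log2 effect of IWR-1 and of the knockdown over the tested members of each list, with the median over all tested genes near 0 for both. The immediate-early list lies at -1.61 and -0.19, the ATF4 list at 0.91 and 0.18 and the contractile list at -0.45 and -0.76.

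The gene sets that the study itself used were counted in the same way. Over all tested genes 20.2% rose and 22.0% fell with IWR-1, and 9.89% rose and 8.38% fell after knockdown. The interaction was called in 27.1% of them. Its list of SOX9 targets (90 tested) had 67 genes up and 3 down with IWR-1 and 43 up and 0 down after knockdown, with 45 positive and 5 negative interactions (55.6% called) (with the block 8 negative interactions, 8 lower with IWR-1 and 2 lower after knockdown). The cartilage-signature list (226 tested) had 102 up and 46 down with IWR-1 and 92 up and 10 down after knockdown, with 65 positive and 51 negative interactions, so 51.3% of it differed between the treatments against 27.1% of all tested genes. Of 138 genes upregulated in osteoarthritis, 24 rose and 54 fell with IWR-1 and 20 rose and 22 fell after knockdown, with 18 positive and 33 negative interactions (37% called) (with the block 31 higher after knockdown and 46 lower after knockdown). Of 57 downregulated in osteoarthritis, 27 rose and 12 fell with IWR-1 and 24 rose and 6 fell after knockdown, with 13 positive and 10 negative interactions (40.4% called). The chondrocyte markers overlap the cartilage lists. Of 15, 11 had a positive and 0 a negative interaction (73.3% called, against 27.1% of all tested genes).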

How the data were processed

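The values were raw read counts per gene, deposited by the authors as separate tables of the drug and the siRNA libraries. Per the study's methods and the submitters' processing notes, poly(A) RNA was made into strand-specific libraries (TruSeq Stranded mRNA, Illumina HiSeq), and the authors trimmed reads with Trimmomatic 0.32, mapped them to mm10 with TopHat2 2.0.13 and counted them with HTSeq 0.6.1p1. The strand setting of the counting is not given in the sources used here, so overlapping genes are named where they occur.

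The tables were joined by Entrez gene ID. Genes were kept by edgeR's filterByExpr over the 4 groups, scaled by TMM and fitted with the quasi-likelihood F test (R 4.3.3, edgeR 4.0.16, prior count 2), and p-values were adjusted by Benjamini-Hochberg over 14164 genes. SE is the unshrunken log2 fold change divided by the square root of F. Depth was 26857070 to 36342916 reads per library, and p-values measure the spread between these libraries. Alternatives were DESeq2 1.42.0, other scalings, filters, thresholds, prior counts and fits, and leaving out each library. The fits were also run on simulated counts, drawn for independent libraries from the fitted spread. Such counts lack any replicate pairing, which is described below, so they do not test its part in the calls.

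The labels number the replicates, and deviations from the group means were compared by that number. Same-numbered libraries correlated at 0.32, 0.23 and 0.53 in the drug table and 0.38, 0.48 and 0.43 in the siRNA table, all above the limit of 0.1. Differently numbered libraries correlated at -0.48 to 0.31 and -0.37 to 0.078. In the drug table DMSO 2 with IWR-1 1 (0.31) lay above the same-numbered pair 2 (0.23), so a pairing is less clear there than in the siRNA table. The block is therefore given as a second fit.

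Named genes were *Tnks*, *Tnks2*, the 4 genes with the smallest interaction p in each class and direction (with a symbol, a mean of at least 1 CPM in each table and treated libraries on one side of the controls), and up to 2 called genes per list and direction. Some further genes are marked as picked after their values were seen. A few genes that the rule or a list names are not reported here. Members, lists and rules were chosen with earlier results of these data known. The XAV939 libraries entered only a fit of all 15 libraries. siRNA strands come from the study's supplement, sites from GENCODE vM21 and promoters from RefSeq.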

Additional observations from a re-analysis of the deposited data

Results flagged for a closer look

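The test of the difference itself flagged 377 genes whose called effects of IWR-1 and of the knockdown ran in opposite directions, 2452 genes called with IWR-1 only and 505 called with the knockdown only. The treatments, their controls and the count tables differ together, so these cannot be told apart as the source of a difference.

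The XAV939 libraries, the second tankyrase inhibitor of the series at 10 µM for 108 h, entered none of the comparisons above. In the fit of all 15 libraries, 2994 of 14271 genes were called with XAV939 against DMSO, 1247 higher and 1747 lower. XAV939 and IWR-1 were compared with the same DMSO libraries, and the classes were chosen on the IWR-1 effect. A shared direction is therefore partly built in, and the values and counts set side by side here are a description. Among the 8 opposite genes with the smallest interaction p, of the 4 that were lower with IWR-1 *Apln* was at -1.20 (adjusted p = 7.31e-06) with XAV939, *Gbe1* at -1.26 (adjusted p = 4.68e-06), *Mmp13* at -0.49 (adjusted p = 0.0323) and *Slc9a3r1* at -0.30 (adjusted p = 0.0957). Of the 4 that were higher with IWR-1, *Fgfr4* was at 1.75 (adjusted p = 1.56e-04), *Wdr77* at 0.48 (adjusted p = 5.35e-04), *Peg10* at 0.24 (adjusted p = 0.187) and *Osgin2* at -0.14 (adjusted p = 0.388). In the 250 opposite genes lower with IWR-1 the median XAV939 effect was -0.37, with 113 lower and 10 higher, and in the 127 opposite genes higher with IWR-1 it was 0.24, with 44 higher and 3 lower. Over the 1298 genes lower with IWR-1 only the median XAV939 effect was -0.47, and over the 1154 higher with IWR-1 only 0.32. Over the 287 and 218 genes raised and lowered by the knockdown only it was -0.085 and 0.050, and over all genes of that fit -0.0017.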

How the results depend on the processing

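With the replicate number as a block the knockdown called 4598 genes, 884 were changed by the knockdown only and 855 in opposite directions, and positive interactions went from 1804 to 2850, while the total of interactions, the IWR-1 count and the IWR-1-only class stayed within 1.5 times in size. A similar size does not mean the same members, as the block counts given with the classes show. A test against a fold change of 1.5 left 1088 interaction genes, 1987 with IWR-1 and 246 after knockdown, with 810 changed by IWR-1 only, 57 by the knockdown only and 16 in opposite directions. An adjusted p threshold of 0.01 left 1564, 193 and 91 in those 3 classes. Leaving out each library in turn gave 1446 to 3417 genes after knockdown, 287 to 642 for the knockdown only and 194 to 507 for opposite directions. The knockdown count was 1472, 1597 and 1446 without siCtrl replicates 1, 2 and 3 and 1723 and 1698 without siTnks/2 replicates 1 and 2. In the same fits the interaction gave 2967 to 4336 genes, IWR-1 4827 to 6475 and IWR-1 only 1909 to 2756. Stricter thresholds leave fewer calls by construction, whereas leaving out a library gave fewer calls in some fits and more in others. Without DMSO replicate 3 the counts rose to 4336 interactions, 6256 genes with IWR-1 and 3417 after knockdown. The causes of these shifts were not tested. DESeq2 called 4215 interactions, 6125 genes with IWR-1 and 3054 after knockdown.

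Other scalings, filters, a prior count of 0.5, the fit of all 15 libraries and separate fits of the tables stayed within 1.5 times of every count, and no called interaction of a named gene reversed its sign. Of 1308 other settings of the 146 named interactions, 41 lost the call, 32 of them in the test against a fold change of 1.5, and of 1752 fits without a library 69 changed, 68 of them losing the call, in 10 genes. Among 1554 list counts, 1350 stayed within 1.5 times, 159 were lower and 45 higher. The share of interaction calls that were positive was 46.9%, or 42.5% with DESeq2 size factors and 48.8% with upper-quartile scaling. At these depths genes of a few CPM, such as *Notch4* or *Tnip3*, rest on few reads.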
